A study of Mus musculus with 12 samples.

Results

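Fibroblast growth factor (FGF) receptors, 2 of their ligands and 5 genes that restrain the receptors' signal were followed in cultured mouse rib chondrocytes from mice with deleted genes of energy metabolism. The genes were chosen by symbol: the receptors Fgfr1, Fgfr2 and Fgfr3, the ligands Fgf2 and Fgf18, the feedback inhibitors Spry1, Spry2, Spry4 and Dusp6, and the receptor-like gene Fgfrl1. All 10 were among the 17922 genes of the deposited table, and all 10 passed the filter on low counts in every comparison. The study deleted Ldha, a subunit of the lactate dehydrogenase that ends glycolysis in lactate, or Acly, the ATP citrate lyase that makes acetyl-CoA in the cytoplasm, to follow what reduced glycolysis and reduced cytoplasmic acetyl-CoA do in skeletal development. The LDH knockout cells came from mice at postnatal day 5 that carried Col2-Cre and Ldha fl/fl and were Ldhb+/-, and the Acly knockout cells came from Col2-Cre, Acly fl/fl embryos at E18.5. Each knockout had littermate controls of the same age, whose alleles (Cre, floxed genes and, in the LDH set, Ldhb) the labels do not give. All mice had a C57BL/6-dominant mixed background. Col2-Cre is driven by regulatory sequence of the type II collagen gene, so deletion is directed to the chondrocyte lineage and other cells in a rib culture need not carry it. The cells were freed from rib cartilage with collagenase and cultured for about a day before RNA was taken. There were 4 groups of 3 samples. The labels do not say whether the samples of a group came from separate animals, and p-values measure the spread between these samples, which may be technical.

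FGFs bind receptor tyrosine kinases together with heparan sulfate, and the activated receptor signals largely through the RAS-ERK cascade. Sprouty proteins (Spry1, Spry2, Spry4) restrain that cascade and Dusp6 removes phosphate from ERK; these genes are themselves induced by ERK signalling and are often read as its output. In the growth plate, Fgfr3 is the receptor of proliferating and prehypertrophic chondrocytes and slows bone elongation, Fgfr1 is prominent in perichondrium and hypertrophic cells, and Fgf18 from the perichondrium is a main ligand. Fgfrl1 binds FGFs but lacks the kinase domain.

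Each library held 26362407 to 28154143 expected counts. Levels below are expected counts scaled to library size with TMM factors (CPM), except where levels of different genes are compared, which is done in TPM, a unit corrected for transcript length. A gene was called where its adjusted p was under 0.05 by edgeR's quasi-likelihood test. Ldha stood at 91.8 ± 7.03 CPM in the LDH knockout and 894 ± 51.3 CPM in its control (SD, n = 3), 10.3% of the control level (adjusted p = 3.26e-07). Ldhb, of which a single allele was removed, was 16.0 ± 1.16 CPM against 12.4 ± 0.604 CPM (log2 fold change 0.37, adjusted p = 0.115). Acly was 69.9 ± 18.8 CPM in the Acly knockout and 187 ± 4.69 CPM in its control, 37.7% of the control level (adjusted p = 0.0313). This call for Acly held in 8 of 15 alternative fits, with log2 fold changes of -1.54 to -1.21. Markers of chondrocytes summed to between 9390 and 31255 CPM in every library. Col2a1 was the largest part of this sum, with group means from 5477 CPM (Acly control) to 19537 CPM (LDH knockout). The summed level of the Y-linked genes Ddx3y, Eif2s3y, Kdm5d and Uty differed between samples: it was 93.0, 102 and 0.590 CPM in the LDH controls and at most 0.0367 CPM in the LDH knockouts, and it was 0.375, 121 and 2.83 CPM in the Acly controls and 0.0755, 74.3 and 82.8 CPM in the Acly knockouts. In the LDH comparison this signal cannot be separated from genotype beyond the single low control, so values from low-Y samples are given beside the results it touches. These leave 1 library in an arm (LDH control 3, or Acly knockout 1), which has no spread of its own, so they are given as sizes with no test. Counts over alternative fits in the knockout comparisons do include the low-Y fit.

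In the LDH knockout, 2 of the 10 genes changed, Fgfr3 and Fgfrl1, and both rose. Over all 13321 genes tested, 2.49% were called in this comparison, 1.43% higher and 1.07% lower. Fgfr3 was at 197% of its control level and Fgfrl1 at 150%. At an unadjusted p under 0.05 there were 6 of the 10 genes, against 19.6% of all genes. Values of the groups did not overlap for 7 of the 10, with Fgfr2, Fgfr3 and Fgfrl1 above the control range and Fgf18, Spry2, Spry4 and Dusp6 below it; over all genes 24.3% did not overlap, 12.2% higher and 12.1% lower. The median log2 fold change of the 10 was -0.09, beside 0.01 over all genes tested. In the Acly knockout none of the 10 passed the threshold with edgeR, where 0.136% of 13973 genes did, 0.0573% higher and 0.0787% lower. There, 2 of the 10, Fgfr3 and Fgfrl1, had an unadjusted p under 0.05, against 15.8% of all genes, and DESeq2 called 1, Fgfr3. The same pair lay above the control range without overlap, against 9.73% of all genes that did so, and the median of the 10 was -0.02.

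**Figure D1:**
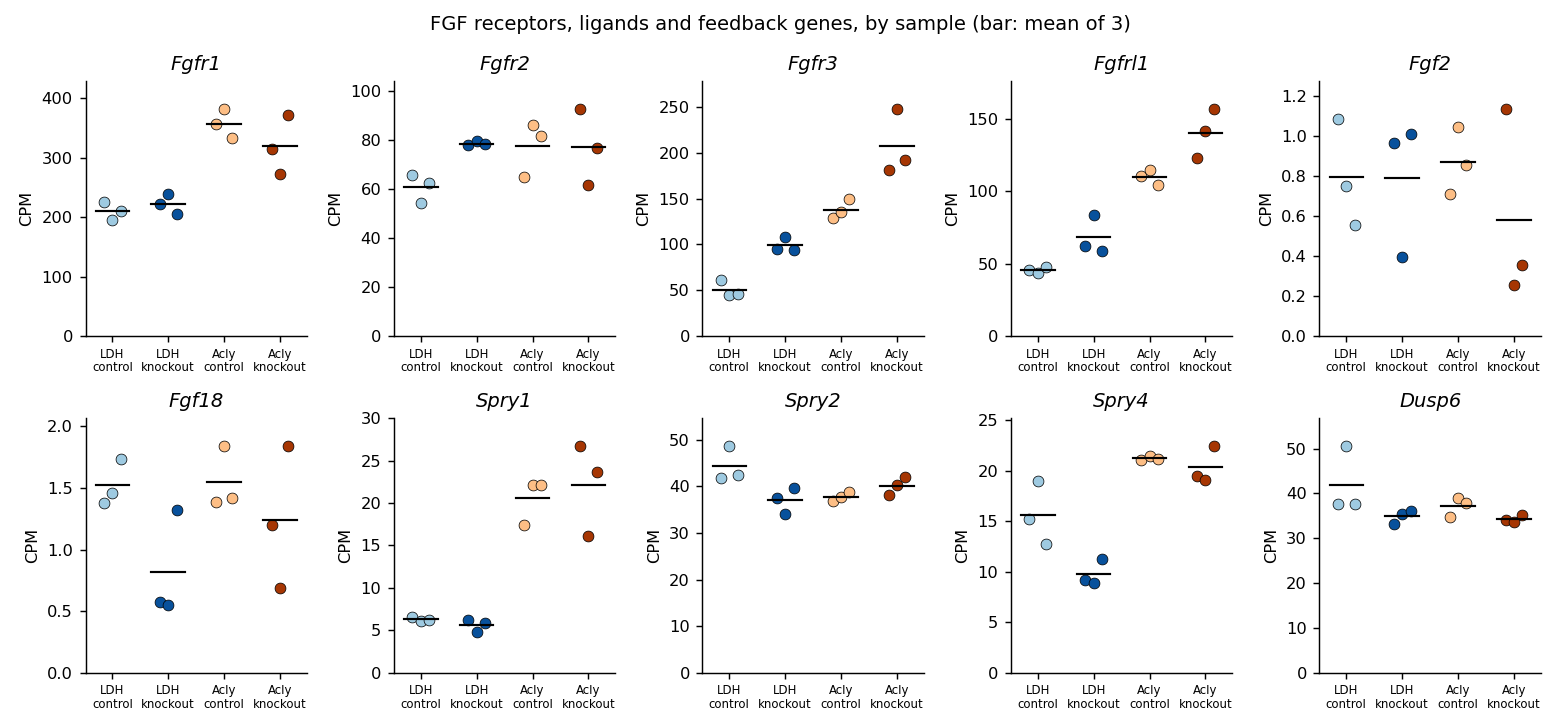
Each panel plots 1 gene in CPM (TMM-scaled, its own axis) for the 3 samples of each of the 4 groups, with points for samples and a bar for the group mean. Fgfr3 and Fgfrl1 sit above their own controls in both knockouts, and the 3 LDH knockout values of Spry4 sit below all 3 of their controls.

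Fgfr3 was at 94.7, 109 and 94.2 CPM in LDH knockouts 1 to 3 and at 61.3, 44.2 and 45.3 CPM in the LDH controls. Every knockout sample lay above every control sample. The log2 fold change was 0.98 (SE 0.13, adjusted p = 0.00731), which puts the knockout at 197% of the control. It passed the threshold when each sample was left out in turn, with log2 fold changes of 0.89 to 1.14. It did not pass with the Y-linked signal as a covariate (1.14, adjusted p = 0.133). Over the samples with low Y-linked signal, the 3 knockouts and control 3, the log2 fold change was 1.12. Fgfr3 in the Acly set was at 182, 248 and 192 CPM in the knockouts and at 129, 136 and 150 CPM in the controls. The groups again did not overlap, with knockout 2 highest. The log2 fold change of 0.60 (SE 0.14) had an adjusted p of 0.172 with edgeR and of 0.00391 with DESeq2. Without Acly knockout 2 it was 0.44 (adjusted p = 0.0611), and over the low-Y samples, knockout 1 against controls 1 and 3, it was 0.38.

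The markers of cell types moved with the same comparisons. In the LDH knockout 8 of 12 tested chondrocyte markers rose, and all 12 lay above the controls without overlap; their sum was 20845 to 31255 CPM against 11385 to 13268 CPM, and none was at 0. Their median log2 fold change was 1.12. In the Acly knockout 3 of 13 rose and 6 of 13 lay above the controls without overlap, with a median of 0.56. The sum there was 15568 to 17919 CPM against 9390 to 10290 CPM. Over all genes tested, 1.43% were called higher in the LDH comparison and 12.2% lay above the controls without overlap. In the Acly comparison these shares were 0.0573% and 9.73%. Of 9 markers of perichondrium and fibroblasts 1 fell in the LDH knockout (Col1a2) and none passed in the Acly knockout. In each knockout 8 of the 9 had negative log2 fold changes, with a median of -0.47. Without overlap, 4 lay below the controls in each, where 12.1% and 12.4% of all genes did. The LDH sum was 888 to 1012 CPM against 902 to 1402 CPM, with Dcn, the 1 positive marker, at 454 against 371 CPM. The Acly sum was 1643 to 3927 CPM against 4270 to 4989 CPM. Acly knockout 2, with the highest Fgfr3 and the lowest Fgfr1, had the lowest perichondrium sum, 1643 CPM against 3908 and 3927 CPM in the others. Its chondrocyte sum lay between those of the others, 17335 CPM against 15568 and 17919 CPM. Its Acly level was also the lowest, 48.3 CPM against 79.0 and 82.4 CPM in knockouts 1 and 3. In the LDH knockout 4 of 6 adipocyte markers rose, with sums of 72.1 to 109 CPM against 38.3 to 54.6 CPM. Col10a1 was the single hypertrophic marker of 6 that passed in each knockout, and it rose. In the LDH set 2 of the 6 lay above the controls without overlap, and the sum was 255 to 408 CPM against 109 to 173 CPM. The Acly set was split, with 3 of the 6 above the controls without overlap and 1, Mmp13, below them. Mmp13 was at 58.5 CPM against 125 CPM (-1.09, adjusted p = 0.0694). The sum in the Acly set was 185 to 246 CPM against 226 to 253 CPM. In the LDH set 1 of 5 osteoblast markers fell, 1 of 8 muscle markers rose, and none of 6 endothelial or 8 blood and immune markers passed. The osteocyte gene Dmp1 and the T cell gene Cd3e were at 0 in the LDH knockouts, and both were too low in this set to be tested. Cd3e and the adipocyte gene Lep were also at 0 in the Acly controls. In the Acly set none of the osteoblast, adipocyte, muscle, endothelial or blood and immune markers passed. There 3 of 8 muscle markers lay below the controls without overlap, where 12.4% of all genes did. Cd68 and Lyz2, genes of macrophages, lay above the controls, where 9.73% of all genes did. The macrophage genes C1qa (-0.11) and Csf1r (0.14) overlapped with the controls. Acly knockout 2 also had the lowest osteoblast sum (595 CPM, against 1259 and 1316 CPM in knockouts 1 and 3), muscle sum (153 against 246 and 287 CPM) and adipocyte sum (189 against 422 and 328 CPM). Col1a1, with a mean of 911 CPM, was the largest part of the osteoblast sum and is in the perichondrium sum too. Lpl, with a mean of 273 CPM, was the largest part of the adipocyte sum. The hypertrophic (199 against 246 and 185 CPM) and endothelial sums (98.9 against 93.7 and 114 CPM) of knockout 2 lay between the others. Its blood and immune sum was the highest, 217 against 180 and 206 CPM. The part of these cell types and of the Acly level in the Fgfr3 and Fgfrl1 results was not tested. In bulk RNA fewer cells of a type and less RNA per cell cannot be told apart.

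**Figure D2:**
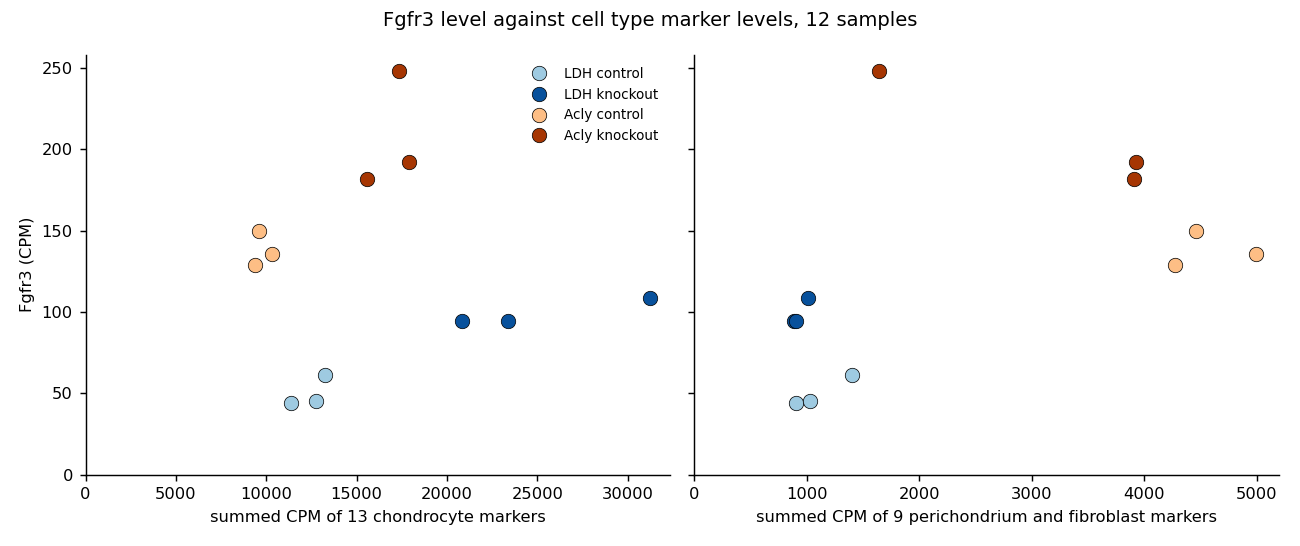
Fgfr3 in CPM against the summed CPM of the chondrocyte markers (left) and of the perichondrium and fibroblast markers (right) in the 12 samples, coloured by group. In each set the knockouts lie above their controls in both Fgfr3 and the chondrocyte sum, of which Col2a1 is the largest part.

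The promoter windows of 3 genes are shown because Fgfr3 and Fgfrl1 rose in the LDH knockout and Dusp6, an output gene of the pathway, did not pass the test. They are the 250 bases before the RefSeq start on GRCm38.p6, on the plus strand; capitals mark the GC box GGGCGG or its complement CCGCCC, a site type of SP-family factors.
Fgfr3, chr5:33721474-33721723: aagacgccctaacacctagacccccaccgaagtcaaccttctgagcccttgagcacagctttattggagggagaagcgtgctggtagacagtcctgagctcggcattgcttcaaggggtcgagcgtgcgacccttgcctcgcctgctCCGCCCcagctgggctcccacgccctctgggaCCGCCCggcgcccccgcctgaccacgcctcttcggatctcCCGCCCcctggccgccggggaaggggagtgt
Fgfrl1, chr5:108693979-108694228: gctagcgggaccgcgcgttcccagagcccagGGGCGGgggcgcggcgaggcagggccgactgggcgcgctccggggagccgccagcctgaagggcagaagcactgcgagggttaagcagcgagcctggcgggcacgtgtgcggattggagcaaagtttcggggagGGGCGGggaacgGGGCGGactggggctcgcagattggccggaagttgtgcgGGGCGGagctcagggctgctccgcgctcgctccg
Dusp6, chr10:99262981-99263230: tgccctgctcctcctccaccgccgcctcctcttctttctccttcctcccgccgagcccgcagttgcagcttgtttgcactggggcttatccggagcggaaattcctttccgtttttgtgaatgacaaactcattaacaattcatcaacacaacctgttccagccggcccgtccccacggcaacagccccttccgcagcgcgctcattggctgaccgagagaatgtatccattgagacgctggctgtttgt
The Fgfr3 window held 3 GC boxes at 66.8% GC, the Fgfrl1 window 4 at 73.6% GC and the Dusp6 window 0 at 56.4% GC, where the median GC of all 32851 windows was 52.4%. RefSeq windows were used for 8 of the genes (9 windows, with a second start for Fgfr3), without Fgfr1 and Spry4. The selection for these genes skipped a whole chromosome, which the set of all windows did not. The GC box occurred in 6 of these 9 windows and in 32.7% of all windows. The 6 were both windows of Fgfr3 and those of Fgfrl1, Fgf2, Spry1 and Fgf18. Of these genes Fgf2, Spry1 and Fgf18 were not called in either knockout. The windows of Fgfr2, Dusp6 and Spry2 held no GC box. The ETS core CCGGAA was found in 1 of 9, that of Fgfrl1, and in 12% of all, and the SOX core ACAAAG in 1 of 9, that of Spry2, and in 16.5% of all. Both strands were searched and the motifs did not overlap. A match describes the letters and not binding.

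Fgfrl1, the receptor without a kinase, was at 62.2, 83.5 and 59.0 CPM in the LDH knockouts and at 45.7, 43.2 and 47.9 CPM in the controls. All knockouts lay above all controls, and knockout 2 was the highest. The log2 fold change was 0.58 (SE 0.13, adjusted p = 0.0473). This call was near the threshold: it held in 6 of 15 alternatives, and of the 6 fits without 1 sample it held without knockout 3 and was lost without each of the others, while the log2 fold change stayed between 0.41 and 0.68. With the Y-linked signal as a covariate it was 0.49 (adjusted p = 0.328), and over the low-Y samples 0.50. The Acly knockouts were at 123, 142 and 157 CPM and the controls at 110, 115 and 105 CPM. They did not overlap, and the log2 fold change was 0.37 (SE 0.11, adjusted p = 0.236). Over the low-Y samples it was 0.20.

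Fgfr2 was at 77.8, 79.5 and 78.2 CPM in the LDH knockouts and at 65.8, 54.4 and 62.4 CPM in the controls. The knockout samples were tightly grouped above the controls, but the log2 fold change of 0.37 (SE 0.09) missed the threshold (adjusted p = 0.0562). It passed in 2 of 15 alternatives, without the filter on low counts (adjusted p = 0.0486) and with DESeq2 (adjusted p = 0.0119). Values of the Acly set ranged from 61.4 to 92.5 CPM in the knockouts and from 64.8 to 86.1 CPM in the controls and overlapped (log2 fold change 0.00, SE 0.16). Fgfr1, the most abundant receptor, was at 223, 239 and 205 CPM in the LDH knockouts and 225, 195 and 211 CPM in the controls. The groups overlapped (0.08, SE 0.09, adjusted p = 0.673). Fgfr1 in the Acly set was at 316, 273 and 372 CPM in the knockouts and 357, 382 and 333 CPM in the controls, with knockout 2 lowest (-0.14, SE 0.12, adjusted p = 0.538).

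The make-up of the receptor mRNA pool was described by shares. Of the summed TPM of Fgfr1 to Fgfr4, Fgfr3 made up 26.9% ± 0.690 in the LDH knockout and 17% ± 1.78 in its control (SD, n = 3), while Fgfr1 made up 54.6% ± 1.05 and 65.3% ± 1.60. The summed TPM was 159 ± 7.09 and 129 ± 11.7. Among the Acly samples Fgfr3 made up 35.5% ± 6.99 in the knockout and 25.3% ± 2.23 in the control, and Fgfr1 made up 49.3% ± 5.46 and 59.4% ± 2.94, of sums of 274 ± 23.4 and 269 ± 22.5. The Fgfr3 share in knockout 2 was 43.5%, and it was 32.0% and 30.9% in the others. These shares are a description and carry no test.

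**Figure D3:**
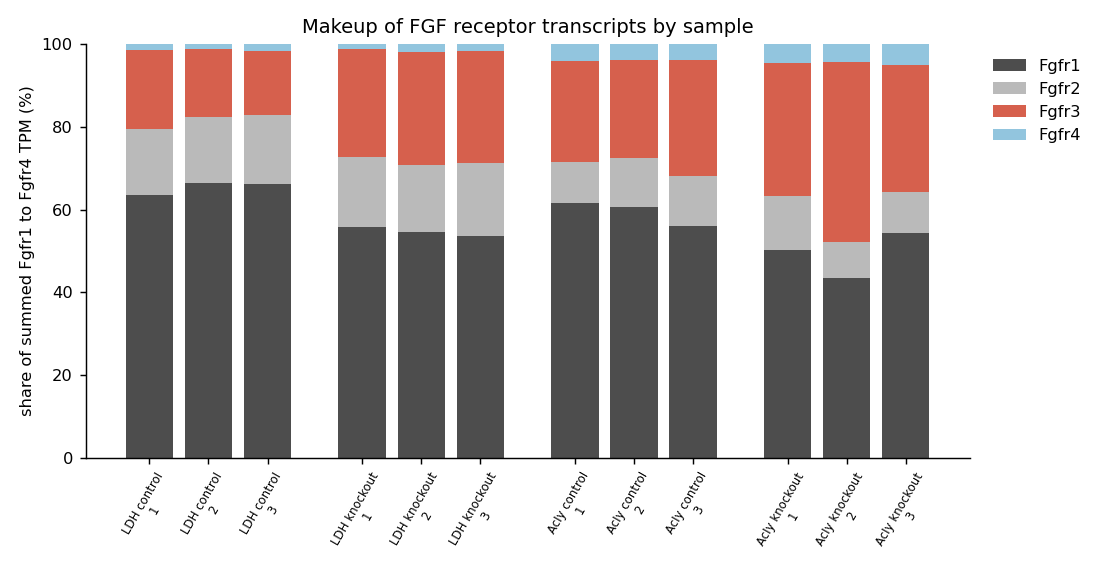
Stacked bars give the percentage of the summed TPM of Fgfr1 to Fgfr4 held by each receptor in each of the 12 samples. The Fgfr3 segment is 26.1% to 27.5% in the LDH knockouts and 15.6% to 19.0% in their controls.

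The ligands were low. Fgf2, a heparin-binding ligand, was at 0.962, 0.393 and 1.008 CPM in the LDH knockouts and at 1.08, 0.749 and 0.553 CPM in the controls, and it was at 1.13, 0.255 and 0.354 CPM in the Acly knockouts and at 0.710, 1.04 and 0.852 CPM in the controls. The groups overlapped in both sets (log2 fold changes -0.01, SE 0.42, and -0.57, SE 0.53). Fgf2 rested on 7 to 32 counts a library and shares its locus with Nudt6 and an antisense RNA, and whether counting used the strand is not given in the sources used here, so its values are uncertain. Fgf18 was at 0.577, 0.551 and 1.32 CPM in the LDH knockouts and at 1.38, 1.46 and 1.74 CPM in the controls. The knockouts lay below the controls, but the log2 fold change of -0.90 (SE 0.37) did not pass the test (adjusted p = 0.214). It rested on 14 to 53 counts a library. In the Acly set Fgf18 overlapped, at 0.691 to 1.84 CPM in the knockouts and 1.39 to 1.84 CPM in the controls (-0.30, SE 0.36).

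None of the 4 feedback genes passed the threshold in the LDH knockout (Spry2 and Spry4 had an unadjusted p under 0.05), and the values of Spry2, Spry4 and Dusp6 lay below the control range. Spry4 was at 9.15, 8.89 and 11.2 CPM in the knockouts and at 15.3, 18.9 and 12.8 CPM in the controls. The groups did not overlap and the log2 fold change was -0.68 (SE 0.16, adjusted p = 0.0602), 62.2% of the control. Its adjusted p was under 0.05 in 4 of 15 alternatives (DESeq2, 0.00389), and over the low-Y samples the log2 fold change was -0.40, against control 3, the lowest of the controls. Spry2 was at 37.6, 34.1 and 39.8 CPM against 41.8, 48.7 and 42.4 CPM (-0.26, SE 0.09, adjusted p = 0.170). Dusp6 was at 33.1, 35.4 and 36.1 CPM against 37.6, 50.6 and 37.6 CPM (-0.27, SE 0.12, adjusted p = 0.256). For Dusp6, control 2 stood high and the other controls lay just above the highest knockout; over the low-Y samples, which leave out control 2, the log2 fold change was -0.12. Spry1 was at 6.19, 4.84 and 5.90 CPM against 6.60, 6.10 and 6.24 CPM and overlapped (-0.16, SE 0.15, adjusted p = 0.591).

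In the Acly knockout the feedback genes overlapped with their controls. Spry1 was at 26.7, 16.1 and 23.7 CPM against 17.4, 22.1 and 22.2 CPM (0.12, SE 0.18). Spry2 was at 38.2, 40.2 and 42.1 CPM against 36.9, 37.7 and 38.7 CPM (0.10, SE 0.09). Spry4 was at 19.5, 19.1 and 22.4 CPM against 21.1, 21.5 and 21.2 CPM (-0.05, SE 0.11). Dusp6 was at 34.1, 33.6 and 35.2 CPM against 34.8, 38.9 and 37.7 CPM (-0.10, SE 0.09). The difference between the LDH and the Acly effects was tested directly, though the deleted gene, age and mouse line coincide in this contrast. None of the 10 passed the threshold with edgeR (2 had an unadjusted p under 0.05), where 0.161% of 14251 genes did (0.0912% with the higher and 0.0702% with the lower LDH effect; 13% had an unadjusted p under 0.05). The difference was -0.62 for Spry4 (SE 0.20, adjusted p = 0.251), -0.34 for Spry2 (SE 0.12, adjusted p = 0.285) and 0.39 for Fgfr3 (SE 0.19, adjusted p = 0.409).

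**Figure D4:**
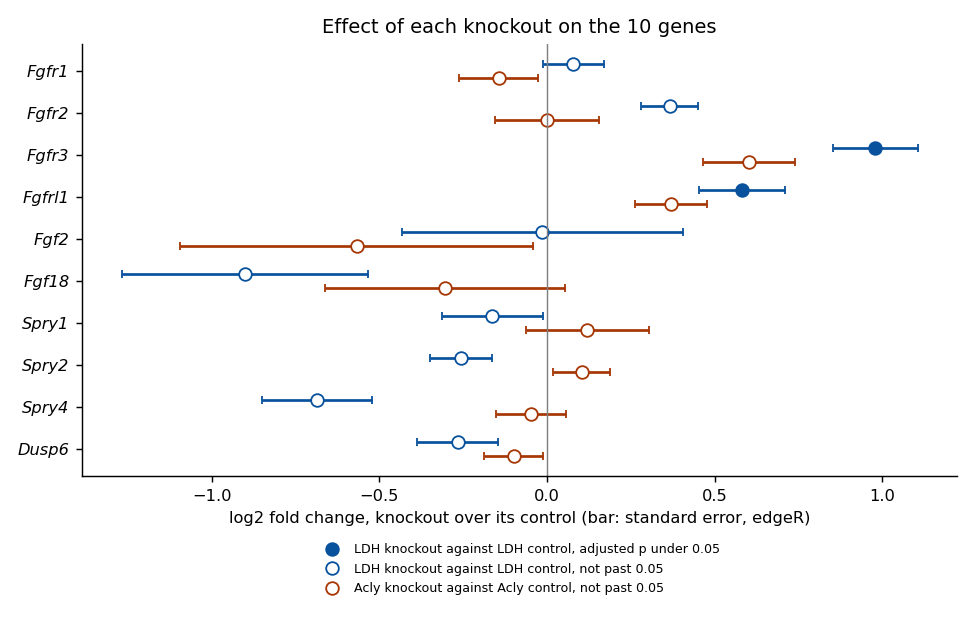
Log2 fold changes of the 10 genes with bars of 1 SE on each side, LDH knockout against LDH control and Acly knockout against Acly control. Fgfr3 stands at 0.98 and 0.60 and Spry4 at -0.68 and -0.05.

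Over all 12 samples, after the mean of each set of 6 was subtracted, the genes most like Fgfr3 in log2 CPM were Ppp1r1b (r = 0.96), the proteoglycan gene Acan (0.96) and Cspg4 (0.94). Those most like Fgfr1 were Fxyd6 (0.96), Scara3 (0.94) and Htra3 (0.93), and those most like Fgfr2 were Ogn (0.96), Cnst (0.92) and Nedd9 (0.92), out of 10557 candidates. The subtraction keeps the differences between knockout and control, so these correlations describe shared groups as well as shared spread. Ppp1r1b, Acan and Cspg4 rose in the LDH knockout, with log2 fold changes of 1.62, 1.22 and 0.58 (adjusted p = 0.00731, 0.00351 and 0.0191), and stood at 0.83, 0.56 and 0.39 in the Acly knockout, where none passed.

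The rest of the pathway was read in 6 lists of 106 genes, 103 of them in the table. In the LDH knockout 4 of 90 tested rose and 1 fell, 5.56% against 2.49% of all genes, with a median of -0.01; in the Acly knockout none of 91 passed (19 had an unadjusted p under 0.05, where 15.8% of all genes did), with a median of -0.04. The genes that passed in the LDH knockout were 3 heparan sulfate proteoglycans and 2 growth plate genes. Gpc3, a glypican, was at 42.0, 49.6 and 46.8 CPM against 31.9, 25.8 and 25 CPM (0.74, adjusted p = 0.0115). Agrn, the proteoglycan agrin, was at 99.5, 105 and 86.6 CPM against 74.1, 69.4 and 63.5 CPM (0.49, adjusted p = 0.0282), and Gpc6, another glypican, at 127, 151 and 128 CPM against 106, 101 and 86.3 CPM (0.46, adjusted p = 0.0469). None of these 3 overlapped with its controls. Npr3, the clearance receptor of natriuretic peptides, rose from 3.13, 3.03 and 2.92 CPM to 8.92, 4.52 and 6.55 CPM (1.14, adjusted p = 0.0398), and Bmp4, a ligand of the bone morphogenetic protein pathway, fell from 20.3, 23.7 and 22.1 CPM to 16.1, 12.2 and 9.85 CPM (-0.79, adjusted p = 0.0404). Gpc3 lost its call without control 3 (adjusted p = 0.0532), Npr3 without knockout 1 or any 1 control, Bmp4 without knockout 2 or any 1 control, and Agrn and Gpc6 without knockout 1, knockout 2 or any 1 control. With the Y-linked signal as a covariate none of the 5 passed, and their log2 fold changes were as large or larger.

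Of 9 further FGF ligands tested in the LDH set none passed; the lowest p values were those of Fgf13 (1.41, adjusted p = 0.0565) and Fgf15 (-1.71). None of 23 adaptors and kinases of the RAS-ERK cascade passed; Grb2, an adaptor between receptors and RAS, was at -0.21. None of 13 other feedback inhibitors passed, with Dusp14 at 0.53 (adjusted p = 0.0513) and Spred3 at -0.41 (adjusted p = 0.0601). Of 16 transcription factors and targets downstream of ERK none passed, 11 had negative values and 5 lay below the controls without overlap, where 12.1% of all genes did, with a median of -0.16. An unadjusted p under 0.05 was found for 6 of the 16, against 19.6% of all genes. Etv4, a target of ERK signalling, was at 10.8, 8.65 and 14.1 CPM in the knockouts and 14.4, 18.9 and 15.6 CPM in the controls (-0.54, adjusted p = 0.145), and Fosl1 was at -0.42 (adjusted p = 0.153). For the Acly comparison the lowest p values of these lists were those of Fgf23 (-1.25), Fgf13 (-0.62), Fgfr4 (0.40), Hspg2 (0.30), Map2k2 (0.54, adjusted p = 0.130), Rps6ka3 (-0.54), Errfi1 (-0.51, adjusted p = 0.119), Dusp14 (0.45), Fos (-0.34) and Egr1 (-0.28). In the growth plate list they were Ihh, the hedgehog ligand, at 5.87, 4.33 and 5.34 CPM in the knockouts against 2.66, 1.81 and 1.46 CPM (1.40, adjusted p = 0.101), and Bmp4 at 15.9, 18.2 and 19.3 CPM against 29.5, 25.1 and 25 CPM (-0.56, adjusted p = 0.159).

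**Figure D5:**
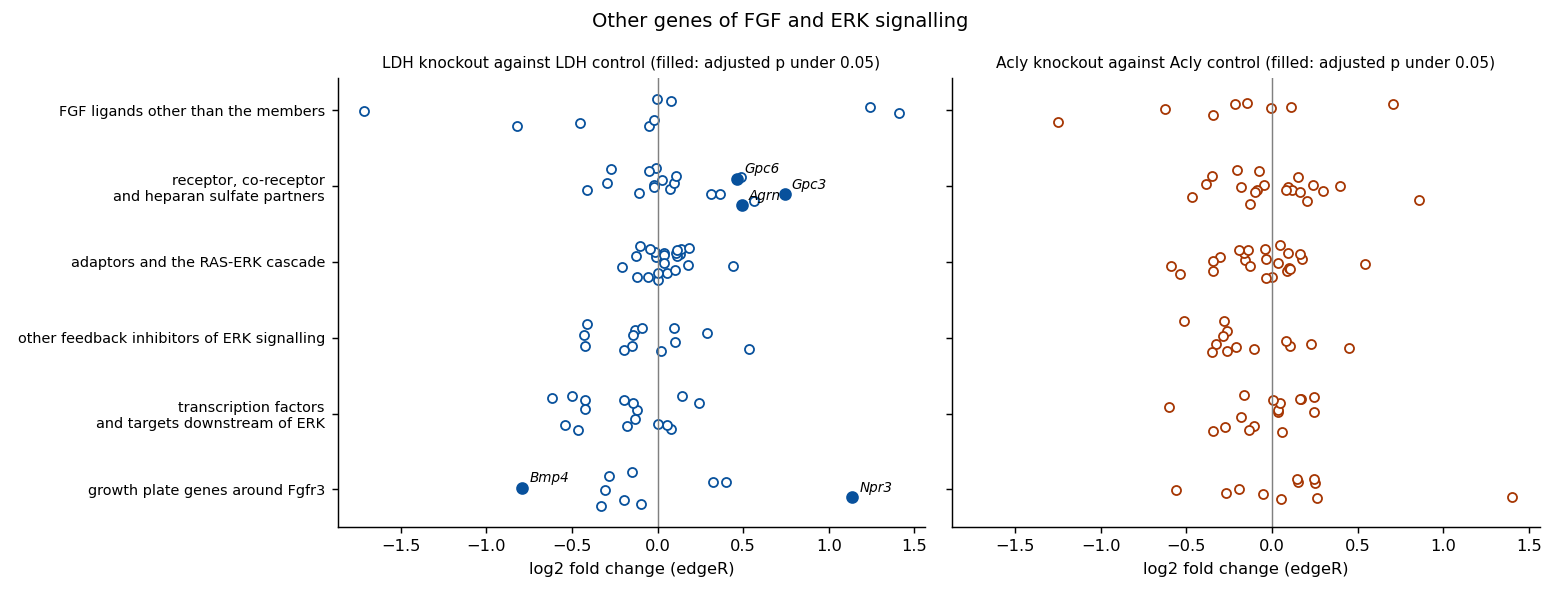
Log2 fold changes of the genes of the 6 pathway lists in both knockout comparisons, with filled points past the threshold. The 5 filled points are in the LDH knockout.

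The controls of both sets differed for 7 of the 10 genes, where 55.0% of 14251 genes did, 29.4% higher and 25.7% lower: Fgfr1 (0.76), Fgfr2 (0.35), Fgfr3 (1.46), Fgfrl1 (1.27), Spry1 (1.70) and Spry4 (0.44) were higher in the E18.5 controls and Spry2 (-0.23) was lower. These 7 were also the ones with an unadjusted p under 0.05, against 60.2% of all genes. The values of 6 of the 10 did not overlap, 5 higher and 1 lower, against 65.4% of all genes, 34.7% higher and 30.7% lower, so the share of the 10 is near that of all genes. Spry1, at 20.6 ± 2.73 CPM against 6.31 ± 0.259 CPM (SD, n = 3), had the largest difference of the 10 (SE 0.18, adjusted p = 6.31e-06). Fgfr3 was at 138 ± 10.8 CPM against 50.3 ± 9.54 CPM (SE 0.14, adjusted p = 3.07e-06). Fgfr2, whose values overlapped, was no longer called without LDH control 2 or 3 or Acly control 2 or 3. Spry2 was not called without LDH control 2 or any 1 of the Acly controls, and Spry4 not without LDH control 1 or 3. Without scaling factors the median of all genes moved to 0.19, the share of higher calls moved from 53.3% to 72.4%, and Spry2 stood at -0.06 (adjusted p = 0.617). Perichondrium markers were at 4270 to 4989 CPM against 902 to 1402 CPM in these controls, and muscle markers at 261 to 334 CPM against 25.3 to 46.4 CPM. Age, mouse line and preparation cannot be told apart here.

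In TPM the order of the genes differed between the sets. In the LDH control Fgfr1 (84.1 TPM) was followed by Spry2 (38.6), Fgfrl1 (33.4), Dusp6 (27.4), Fgfr3 (22.1) and Fgfr2 (21.0), of which neighbours from Fgfrl1 on overlapped. In the LDH knockout Fgfr1 (86.6 TPM) was followed by Fgfrl1 (48.7) and Fgfr3 (42.7), which overlapped, and then by Spry2 (31.8), Fgfr2 (26.8) and Dusp6 (22.3). In the Acly control the order was Fgfr1 (160 TPM), Fgfrl1 (90.1), Fgfr3 (68.0), Spry2 (36.9), Fgfr2 (30.7) and Dusp6 (27.2), the last 3 overlapping with their neighbours. In the Acly knockout it was Fgfr1 (136 TPM), Fgfrl1 (108), Fgfr3 (96.0), Spry2 (37.3), Fgfr2 (29.1) and Dusp6 (23.8), where Fgfr1 overlapped with Fgfrl1, Fgfrl1 with Fgfr3, and Spry2, Fgfr2 and Dusp6 with their neighbours. In all 4 groups Spry1, Spry4, Fgf2 and Fgf18 were the lowest 4, at 18.9 TPM or less, with Fgf18 at 0.973 TPM in the LDH knockout.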

How the data were processed

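RNA-seq of mouse rib chondrocytes was analysed in 12 samples, 3 in each of 4 groups taken from the titles in the labels. Libraries were made from poly(A) RNA, per the labels' protocols. The submitters' processing notes name HISAT2 2.0.4 and the build mm9, with no role given; the quantifier is not given in the sources used here. The deposited table holds, for each sample, expected counts per gene estimated by the authors, and TPM and FPKM values that the authors computed, both relative to library size and transcript length. Between 7.32% and 8.16% of the expected counts in a library, 0 included, were not whole. The authors' 12 columns of group means were not used. The depth of 26362407 to 28154143 counts puts 3 counts at 0.107 to 0.114 CPM.

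Expected counts were rounded and tested in edgeR 4.0.16 (R 4.3.3) with TMM scaling, filterByExpr and the quasi-likelihood test; every adjusted p in the text is by Benjamini-Hochberg over all genes tested, from edgeR unless DESeq2 1.42.0 or limma 3.58.1 is named. Each knockout was fitted against its own control with 6 samples, and the difference between effects and the controls' comparison in 1 fit of all 12. SE is the absolute log2 fold change over the square root of F. CPM values were scaled over all 12 samples. The fits were repeated with DESeq2's size factors, with total counts alone, with all genes kept, in DESeq2, with limma on log2(FPKM + 0.1), a replicate block, a Y-linked covariate, all 12 samples together, each sample left out, and, chosen after seeing the data, only samples with low Y-linked signal. On simulated data the test made false calls at a higher rate than the nominal threshold in both knockout comparisons, which bears on calls near it. The members and gene lists were chosen with earlier results of these data known. Named were all 10 members, the targeted genes, list genes past the threshold, otherwise the 2 of lowest p per list and knockout comparison, and the 3 genes most like Fgfr1, Fgfr2 and Fgfr3; markers and Col1a2 are named beside results. A result that the rule would name is not reported here. Of the genes, 17814 of 17922 Entrez IDs were found in RefSeq, whose GRCm38.p6 supplied promoter sequences only.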

Additional observations from a re-analysis of the deposited data

Results flagged for a closer look

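The effects of both knockouts differed for the genes they target, which are not members of the FGF group. The LDH effect minus the Acly effect on Ldha was -3.18 on the log2 scale (adjusted p = 5.52e-08, edgeR), and the same difference for Acly was 1.25 (adjusted p = 0.0411, edgeR). The call for Ldha held in 19 of 19 alternative fits and that for Acly in 8 of 19, with differences of 1.05 to 1.39. No FGF receptor, ligand or feedback gene had a called difference.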

How the results depend on the processing

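Of 150 member values recomputed in the LDH comparison, 129 kept their direction and their side of the threshold; this held for 141 of 150 in the Acly comparison, 190 of 190 in the difference and 101 of 120 between controls. LDH genes called (332) were 902 with DESeq2, 3 with the Y-linked covariate and 15 over low-Y samples, and 95 to 1068 without 1 sample (lowest without LDH control 3, highest without LDH knockout 3). LDH members called (2) were 4 without the filter and with DESeq2, 1 with limma on FPKM, 0 with the covariate (3 with an unadjusted p under 0.05), and 1 to 4 without 1 sample. Acly genes called (19) were 11 with total counts (27.3% higher, against 42.1%), 32 without the filter, 253 with DESeq2, 6 with the covariate, 31 in the fit of all samples and 70 over low-Y samples; they were 0 to 132 without 1 sample (highest without Acly knockout 2; at 0, 1008 to 2323 genes had an unadjusted p under 0.05). DESeq2 called 1 Acly member and no fit without 1 sample called any. Genes whose effects differed (23) were 213 with DESeq2, 6 with the covariate and 5 to 143 without 1 sample. Genes called between controls (7844) ranged from 6705 to 7127 without 1 sample, and members from 5 to 6.

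Directions turned only in values near 0 or at low counts. Fgf2 in the LDH comparison was 0.57 with the covariate, 0.50 over low-Y samples and -0.23 to 0.31 without 1 sample, and in the Acly comparison 0.53 over low-Y samples. Fgfr2 in the Acly comparison was -0.0426 with total counts, -0.0514 with limma, -0.011 in the fit of all samples and -0.14 to 0.13 without 1 sample. Without 1 sample, Spry1 in the Acly comparison ranged from -0.0265 to 0.298, Ldha there from -0.152 to 0.00962, and between controls Fgf2 from -0.0769 to 0.41 and Fgf18 from -0.12 to 0.12; Dusp6 between controls was 0.0128 with limma. The low-Y fits leave 1 library in an arm, assumed to vary like the others, so whether a gene is called in them says nothing on stability. The cause was not tested.

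Samples with the same replicate number did not deviate together (r of 0.0491, -0.159 and 0.00618 in the LDH set and -0.000123, -0.216 and -0.223 in the Acly set). With so few samples in a group, this check cannot decide whether equal numbers mark pairs. With the replicate block 362 LDH genes and 1 LDH member were called (Fgfr3, 0.99, adjusted p = 0.00738; Fgfrl1, 0.57, adjusted p = 0.0581), 8 Acly genes and no Acly member, and 5 genes in the difference; Fgfr2 in the Acly comparison was -0.0057 with the block. Depth limits Fgf2 and Fgf18, at 7 to 53 counts a library.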
